A study of Mus musculus with 6 samples.

Results

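The tumour necrosis factor (TNF) ligands and the TNF receptor superfamily were followed in mouse AKP organoids whose genotype was labelled Control or SOX17KO. Members were taken by gene symbol: 31 rows matched a Tnfsf or Tnfrsf symbol followed by a digit, and 12 were added by name (Tnf, Lta, Ltb, Ltbr, Fas, Fasl, Cd27, Cd40, Cd70, Eda2r, Edar and Ngfr). This gave 43 of the 23224 genes in the table, 16 ligands and 27 receptors. The rule rests on symbols and names and not on measured values, but the set was chosen with earlier results of these data known.

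The study deleted SOX17, a transcription factor, by CRISPR-Cas9 in AKP organoids, three-dimensional epithelial cultures that here were grown from tumours formed in vivo. The labels do not spell out what AKP stands for, and both groups carried the same AKP background. The Control group had 3 libraries and the SOX17KO group had 3. The labels name neither the guide nor the control construct, and they do not say whether the replicates were separate cultures, clones or animals, so p-values measure only the spread between these libraries, which may be technical.

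TNF ligands are mostly membrane proteins that act as trimers on the cell surface or after release by proteases. Their receptors fall into those with a cytoplasmic death domain, which can recruit FADD or TRADD and activate caspase-8 or RIPK kinases, those that bind TRAF adaptors and signal to NF-kappaB, and decoys that bind a ligand without a working signalling tail. In the intestine the epithelium carries receptors for TNF, lymphotoxin, TWEAK and TRAIL, while most of the ligands and the costimulatory receptors are made by lymphocytes and myeloid cells.

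Total counts ranged from 18290912 to 27503254 per library. Sox17 transcript was not lower in the libraries labelled SOX17KO: it was 34.4, 34.5 and 34.2 counts per 1000000 of the normalised library (CPM) in Control and 33.8, 41.9 and 45.1 CPM in SOX17KO, so it does not check the labels, and a small edit can leave a transcript in place. SOX17KO replicate 1 stood apart, with a correlation of log2 CPM across genes of 0.960 with SOX17KO replicate 2 and 0.963 with replicate 3, a pair that correlated at 0.986, whereas the Control libraries correlated at 0.994 to 0.995. Of the 10 epithelial markers 9 were measurable and summed to 13417 to 14193 CPM in Control and 10077 to 14308 CPM in SOX17KO. Of 11 markers of T, B and NK cells 7 were at 0 in every library, Cd3e, Cd79a and Nkg7 among them, and the sum stayed at 0.470 to 0.723 CPM in Control and 0.420 to 0.776 CPM in SOX17KO. Of 8 myeloid markers only Cd14 and Cd68 passed the low-count filter and Tyrobp was at 0 throughout. The sum of the 8 was 27.8 to 31.5 CPM in Control and 41.3 to 45.6 CPM in SOX17KO. Cd14 measured 20.7, 19.8 and 19.8 CPM in Control and 40.6, 33.1 and 27.9 CPM in SOX17KO. Cd68 measured 10.7, 8.52 and 7.99 CPM in Control and 4.66, 11.7 and 13.3 CPM in SOX17KO. For Cd68, SOX17KO replicate 1 thus lay below and replicates 2 and 3 above the Control range. None of the 7 fibroblast and 5 endothelial markers passed the filter.

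The low-count filter kept 24 of the 43 members. Between SOX17KO and Control 1 of these 24 was called at an adjusted p under 0.05 by edgeR's quasi-likelihood test with Benjamini-Hochberg adjustment over all genes, and that was the ligand Tnfsf13, which was lower. This is 4.17% of the tested members, beside 6.87% of all 12137 tested genes, 3.67% called higher and 3.2% called lower. None of the 17 tested receptors was called, and 12 of them had a negative log2 fold change. Over the 24 members the median log2 fold change of SOX17KO over Control was -0.14, with 15 negative and 9 positive, beside a median of 0.014 over all tested genes. Of all tested genes 5738 were negative and 6399 positive. Without SOX17KO replicate 1 the members were 12 negative and 11 positive.

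At an unadjusted p under 0.05 by the same test there were 12 of 24 members, which is 50% beside 20.3% of all tested genes. Both shares varied with the setting. Without Control replicate 1 they were 25% of members and 14.5% of all genes. They were 52.2% and 34.9% without SOX17KO replicate 1, and 62.5% and 20.4% with no low-count filter. The 3 libraries of each group did not overlap in 13 of 24 members, 5 higher and 8 lower in SOX17KO, beside 28.2% of all tested genes (14% higher and 14.2% lower). Members share libraries and several lie next to each other, so they are not independent of each other, and these shares describe them only.

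**Figure D1:**
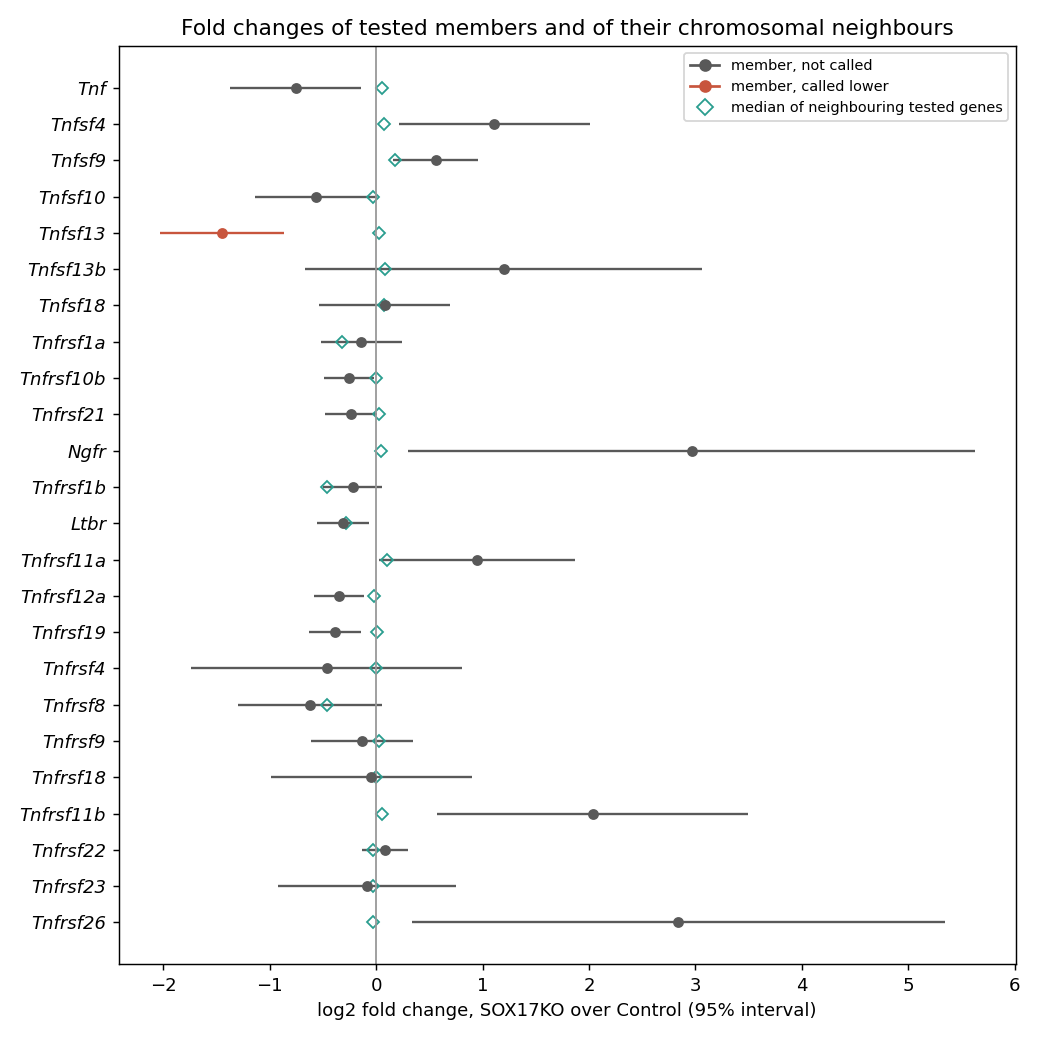
Log2 fold change of SOX17KO over Control for each of the 24 tested members (dots, red where called), in the order of their roles, with the 95% confidence interval of edgeR's quasi-likelihood fit (lines, 3 libraries per group) and the median of up to 20 neighbouring tested genes (diamonds). Tnfsf13 at -1.45 is the called member, and the widest intervals belong to Ngfr, Tnfrsf26, Tnfsf13b and Tnfrsf11b.

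Among the ligands, 7 of 16 were tested and Tnfsf13 fell. Tnfsf13 encodes APRIL, a ligand that supports plasma cells and B cells through TACI and BCMA. It measured 25.6, 21.0 and 21.8 CPM in Control replicates 1, 2 and 3 and 5.69, 7.94 and 11.6 CPM in SOX17KO replicates 1, 2 and 3. The highest SOX17KO library lay below the lowest Control library, and the means were 22.8 ± 2.44 and 8.41 ± 2.98 CPM (SD, n = 3 each). The log2 fold change was -1.45 ± 0.25 (SE; 95% interval -2.04 to -0.87), with an adjusted p of 0.0175 by edgeR's quasi-likelihood test, a level 2.73-fold lower. Its direction held under every alternative run, with log2 fold changes of -1.75 to -1.24. The call did not hold in every one: the adjusted p by the same test was 0.104, 0.0760 and 0.0851 without Control replicate 1, 2 or 3 and 0.0553 without SOX17KO replicate 2. Without any of the 3 Control libraries no member was called, beside 1.6%, 1.56% and 1.64% of all tested genes. Without SOX17KO replicate 2 the called member was Tnfrsf11b, beside 6.16% of all genes, and without SOX17KO replicate 3 it was Tnfsf13, beside 5.49%. DESeq2 called 5 members beside 10.7% of all genes it tested: Tnfsf13, Tnf, Tnfrsf12a and Tnfrsf19 lower and Ngfr higher.

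The count of Tnfsf13 carries an annotation limit. In RefSeq (GRCm38.p6) Tnfsf12 and Tnfsf13 are neighbours on chromosome 11, and a read-through gene, Tnfsfm13, spans both. Reads of such a transcript could be assigned to either gene, and whether counting used strand is not given in the sources used here. A stretch upstream of the Tnfsf13 start holds a TCF/LEF core (CTTTGA, here on the opposite strand) 153 bases and an AP-1 match (TGANTCA) 133 bases before the start, both in capitals, and is shown because Tnfsf13 is the called member. It lies at chr11:69685681-69685707 on the minus strand, within an annotated exon and UTR of a longer Tnfsf13 transcript in GENCODE M21.
Tnfsf13: TCAAAGatctcattcatgccTGAGTCA
Within the 250 bases before the start, 13.8% of all 32851 RefSeq promoters hold the TCF/LEF core on either strand and 6.75% the AP-1 letters. Of the 38 promoters found for 34 of the members, 7 and 6 hold them. A match of letters is a description and not a bound site.

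Tnf itself, the founding ligand and a strong activator of NF-kappaB, measured 27.1, 24.7 and 24.5 CPM in Control and 21.7, 10.01 and 13.4 CPM in SOX17KO. The groups did not overlap, with means of 25.5 ± 1.43 and 15.01 ± 6.01 CPM (SD, n = 3 each), but the SOX17KO libraries spread widely. The log2 fold change of -0.76 ± 0.26 (SE) missed the threshold, with an adjusted p of 0.153 by edgeR's quasi-likelihood test. Without SOX17KO replicate 1, the SOX17KO library nearest to Control, it was -1.13 with an adjusted p of 0.000214 by the same test. Without that library 22.2% of all tested genes were called. Leaving out any other single library left Tnf uncalled, with adjusted p of 0.231 to 0.389 by the same test. The 250 bases before the Tnf start are shown because Tnf names the family; the TATA box, 29 bases before the start, is in capitals (chr17:35202008-35202257, minus strand, GRCm38.p6, RefSeq).
Tnf: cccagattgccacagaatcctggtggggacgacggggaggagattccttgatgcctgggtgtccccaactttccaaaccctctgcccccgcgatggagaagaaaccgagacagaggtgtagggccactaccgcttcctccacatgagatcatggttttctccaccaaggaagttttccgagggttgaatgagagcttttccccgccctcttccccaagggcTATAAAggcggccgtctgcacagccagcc
The letters TATAAA occur on the gene's strand in 7.59% of all promoters and in 5 of the 38 member promoters. The SOX core ATTGT, searched on both strands, occurs in 27.7% of all promoters and in 5 of the 38, and in this Tnf window none was found.

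Tnfsf9 and Tnfsf4 encode 4-1BB ligand and OX40 ligand, which costimulate T cells. Tnfsf9 measured 11.2, 10.1 and 9.32 CPM in Control and 11.9, 17.6 and 15.6 CPM in SOX17KO. Its groups did not overlap, and the log2 fold change of 0.56 ± 0.17 (SE) had an adjusted p of 0.109 by edgeR's quasi-likelihood test. Tnfsf4 was scarce, at 0.724, 0.478 and 0.266 CPM in Control and 1.15, 1.05 and 0.998 CPM in SOX17KO. Its log2 fold change was 1.11 ± 0.38 (SE; 95% interval 0.21 to 2.01) with an adjusted p of 0.151 by the same test. Both ligands were higher in each SOX17KO library than in any Control library without reaching the threshold.

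Tnfsf10 encodes TRAIL, the ligand of the death receptor Tnfrsf10b. It measured 5.79, 4.88 and 8.86 CPM in Control and 4.20, 4.35 and 4.66 CPM in SOX17KO, without overlap, and its log2 fold change was -0.57 ± 0.24 (SE; adjusted p = 0.251 by edgeR's quasi-likelihood test). The high Control replicate 3 gave this ligand most of its spread. Tnfsf13b, which encodes the B-cell survival factor BAFF, measured 0.289, 0.431 and 0.380 CPM in Control and 1.83, 0.176 and 0.443 CPM in SOX17KO, with a log2 fold change of 1.20 ± 0.79 (SE). SOX17KO replicate 1 was far above the rest, and without it this gene did not pass the filter. Tnfsf18, the GITR ligand, measured 0.875 to 1.29 CPM in Control and 0.998 to 1.27 CPM in SOX17KO, and its groups overlapped.

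**Figure D2:**
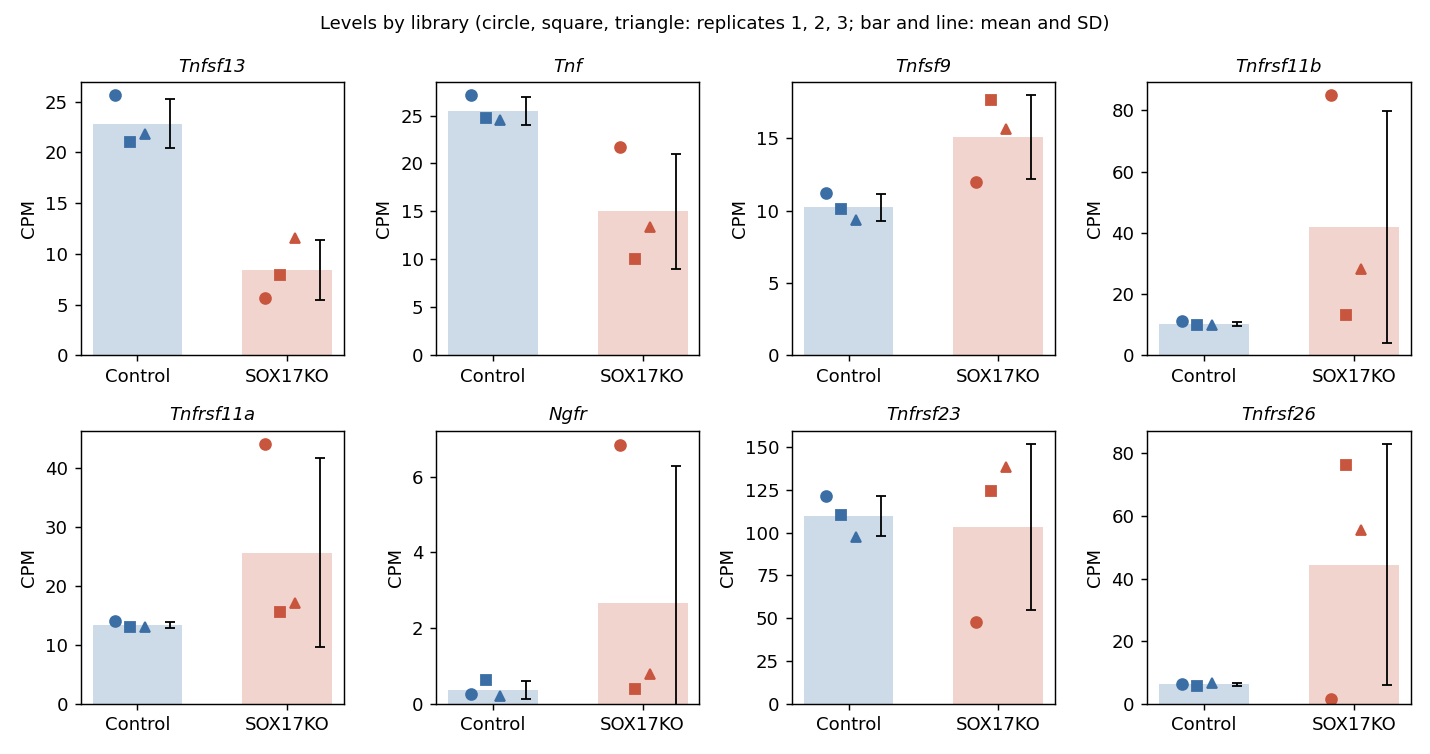
CPM in each of the 6 libraries for 8 members that the text describes, with a bar at each group's mean and a vertical line for the SD (n = 3 each; the SD line of Ngfr is cut at 0; circle, square and triangle are replicates 1, 2 and 3). The Tnfsf13 points separate, those of Tnfrsf11b and Ngfr are spread by SOX17KO replicate 1, and Tnfrsf26 is low in that library and high in the other two.

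Of the 7 death-domain receptors 4 were tested and none was called. Tnfrsf1a, the main TNF receptor of epithelium, measured 87.9, 81.4 and 78.1 CPM in Control and 57.2, 90.2 and 77.3 CPM in SOX17KO. These overlapped, and the log2 fold change was -0.14 ± 0.16 (SE; 95% interval -0.52 to 0.24). Tnfrsf10b, the mouse TRAIL receptor and a known target of p53, measured 55.4, 53.6 and 49.99 CPM in Control and 39.2, 48.2 and 45.8 CPM in SOX17KO, with a log2 fold change of -0.26 ± 0.10 (SE; adjusted p = 0.210 by edgeR's quasi-likelihood test). Its groups did not overlap, although the gap between 49.99 and 48.2 CPM was narrow.

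Tnfrsf21, or death receptor 6, gave a similar picture at 52.5, 44.8 and 43.0 CPM in Control and 37.1, 42.1 and 39.7 CPM in SOX17KO, with a log2 fold change of -0.24 ± 0.10 (SE; adjusted p = 0.258 by edgeR's quasi-likelihood test). Ngfr, the p75 neurotrophin receptor, was the opposite case. It measured 0.253, 0.622 and 0.190 CPM in Control and 6.83, 0.395 and 0.776 CPM in SOX17KO. The log2 fold change of 2.96 ± 1.13 (SE; adjusted p = 0.196 by edgeR's quasi-likelihood test) was 0.74 without SOX17KO replicate 1, which alone held 179 of its counts.

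Fas, the receptor of Fas ligand and another known p53 target, did not pass the filter. It had 2, 1 and 3 counts in Control and 9, 8 and 6 in SOX17KO, a ratio of 4.28 after scaling to library size (95% exact interval 1.69 to 12.8, which covers counting error only). No Fas count overlapped between the groups, and with the filter removed its adjusted p was 0.0848 by edgeR's quasi-likelihood test. Trp53 itself, which encodes p53, was low, at 1.70, 1.58 and 1.64 CPM in Control and 2.75, 1.67 and 2.11 CPM in SOX17KO (log2 fold change 0.41 ± 0.25, SE; adjusted p = 0.441 by the same test). Edar and Tnfrsf25, the other untested death-domain receptors, had 9 or fewer counts in all.

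The receptors without a death domain held several of the most abundant members, and none of the 5 tested was called. Tnfrsf12a, or Fn14, the receptor of TWEAK, measured 193, 198 and 206 CPM in Control and 136, 166 and 166 CPM in SOX17KO. The means were 199 ± 6.88 and 156 ± 17.2 CPM (SD, n = 3 each), and the log2 fold change was -0.35 ± 0.10 (SE; adjusted p = 0.0902 by edgeR's quasi-likelihood test). Tnfrsf19, or Troy, known as a Wnt target and a marker of intestinal stem cells, measured 120.5, 118 and 109 CPM in Control and 77.0, 96.4 and 92.2 CPM in SOX17KO. Its log2 fold change was -0.39 ± 0.10 (SE; adjusted p = 0.0761 by the same test). In both genes every SOX17KO library lay below every Control library. Without SOX17KO replicate 1 both were called by the same test, at -0.26 (adjusted p = 0.0196) and -0.30 (adjusted p = 0.0164). Leaving out any other single library called neither by that test. The adjusted p was then 0.105 to 0.294 for Tnfrsf12a and 0.0725 to 0.274 for Tnfrsf19. Lgr5, a stem cell marker counted above among the epithelial markers, went the other way. It measured 47.8, 48.4 and 38.3 CPM in Control and 123, 140 and 173 CPM in SOX17KO.

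Ltbr, the lymphotoxin beta receptor, measured 95.8, 85.7 and 90.4 CPM in Control and 65.8, 82.3 and 71.2 CPM in SOX17KO. The groups did not overlap, and the log2 fold change was -0.31 ± 0.10 (SE; adjusted p = 0.138 by edgeR's quasi-likelihood test). Tnfrsf1b, the second TNF receptor, measured 119, 105 and 102 CPM in Control and 79.7, 103 and 96.9 CPM in SOX17KO, and it overlapped (log2 fold change -0.22 ± 0.12, SE). Tnfrsf11a, or RANK, which in the gut is known for driving microfold cell differentiation, measured 14.0, 13.0 and 13.0 CPM in Control and 44.2, 15.6 and 17.2 CPM in SOX17KO. Each SOX17KO library was higher than Control, but the log2 fold change of 0.95 ± 0.39 (SE; adjusted p = 0.231 by the same test) was 0.29 without SOX17KO replicate 1.

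**Figure D3:**
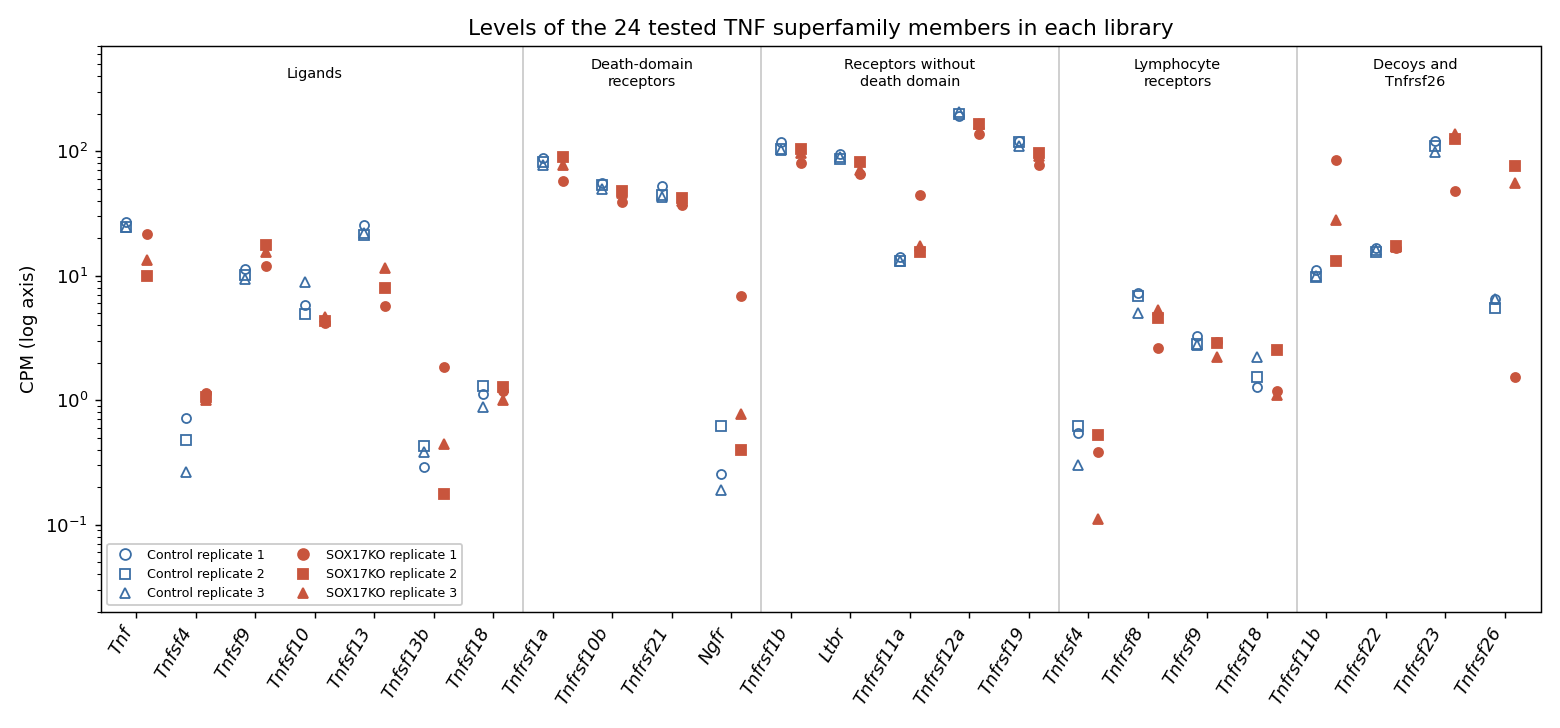
Level of each of the 24 tested members in each of the 6 libraries, in CPM on a log axis, grouped by role (3 Control and 3 SOX17KO libraries). Receptors of epithelium such as Tnfrsf12a and Tnfrsf1b lie near or above 100 CPM, while 4 of the 7 tested ligands and the 4 lymphocyte receptors lie below 10 CPM.

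The 9 receptors of lymphocytes and antigen-presenting cells were low, and none of the 4 tested was called. Tnfrsf8, or CD30, was the highest of them at 7.20, 6.84 and 5.02 CPM in Control and 2.63, 4.56 and 5.27 CPM in SOX17KO, with overlap (log2 fold change -0.62 ± 0.29, SE; adjusted p = 0.290 by edgeR's quasi-likelihood test). Tnfrsf9, or 4-1BB, measured 3.26, 2.82 and 2.78 CPM in Control and 2.94, 2.90 and 2.22 CPM in SOX17KO, a log2 fold change of -0.13 ± 0.20 (SE). Tnfrsf18, or GITR, overlapped widely at 1.27, 1.53 and 2.21 CPM against 1.18, 2.55 and 1.11 CPM, and its sign turned when single libraries were left out. Tnfrsf4, or OX40, stayed under 1 CPM in every library, with a log2 fold change of -0.46 ± 0.54 (SE). The markers of T, B and NK cells were at or near 0 in the same libraries. Of these only Ptprc passed the filter, at 0.181 to 0.495 CPM in Control and 0.267 to 0.554 CPM in SOX17KO. In these bulk libraries fewer cells expressing a gene and less RNA per cell cannot be told apart.

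None of the 3 decoy receptors was called, nor was Tnfrsf26, and all but Tnfrsf22 varied widely among the SOX17KO libraries. Tnfrsf11b encodes osteoprotegerin, a secreted decoy for RANK ligand and TRAIL. It measured 11.1, 9.81 and 9.93 CPM in Control and 84.9, 13.0 and 28.1 CPM in SOX17KO, with means of 10.3 ± 0.719 and 42.0 ± 37.9 CPM (SD, n = 3 each). Every SOX17KO library exceeded every Control library, and the log2 fold change of 2.03 ± 0.62 (SE; 95% interval 0.57 to 3.50) had an adjusted p of 0.112 by edgeR's quasi-likelihood test. It was 0.98 (adjusted p = 0.0194) without SOX17KO replicate 1 and 2.46 (adjusted p = 0.0309) without SOX17KO replicate 2. Leaving out any other single library left Tnfrsf11b uncalled, with adjusted p of 0.138 to 0.324 by the same test.

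Tnfrsf22, Tnfrsf23 and Tnfrsf26 form a cluster on chromosome 7. The first pair bind TRAIL without a death domain, and the ligand of Tnfrsf26 is not established. Tnfrsf26 measured 6.44, 5.55 and 6.54 CPM in Control and 1.53, 76.3 and 55.5 CPM in SOX17KO. SOX17KO replicate 1 was thus below and replicates 2 and 3 above the Control range, and the log2 fold change of 2.84 ± 1.06 (SE; adjusted p = 0.187 by edgeR's quasi-likelihood test) became 3.41 (adjusted p = 4.22e-07) without replicate 1. By limma-voom it was 1.43 (adjusted p = 0.733). Leaving out any other single library left Tnfrsf26 uncalled by edgeR's quasi-likelihood test, with adjusted p of 0.290 to 0.457. Tnfrsf23 split the same way, at 121, 110.2 and 97.6 CPM in Control and 47.8, 124 and 138 CPM in SOX17KO, and its log2 fold change turned from -0.09 ± 0.35 (SE) to 0.26 without replicate 1. Tnfrsf22 did not split: it measured 16.6, 15.5 and 16.0 CPM in Control and 16.6, 17.3 and 16.96 CPM in SOX17KO (log2 fold change 0.08 ± 0.09, SE; 95% interval -0.13 to 0.30). Such a split of SOX17KO replicate 1 from replicates 2 and 3 to opposite sides of the Control range occurred in 2 of 24 members (8.33%) and in 15% of all tested genes.

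Tnfrsf22 and Tnfrsf23 have stretches of identical sequence, so counts from these may be shared between them by the estimation of expected counts. Their longest identical coding stretch is 102 bases over exons 4 to 6 of both genes on the minus strand of chromosome 7 (GRCm38, GENCODE M21), shown because reads within it cannot tell the genes apart. In Tnfrsf22 the 3 exon pieces lie at chr7:143640752-143640768, chr7:143639902-143639975 and chr7:143638426-143638436. In Tnfrsf23 they lie at chr7:143670832-143670848, chr7:143669982-143670055 and chr7:143668582-143668592.
Tnfrsf22 and Tnfrsf23: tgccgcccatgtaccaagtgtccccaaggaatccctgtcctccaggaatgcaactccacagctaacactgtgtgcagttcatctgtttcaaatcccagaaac
Of all runs of 50 bases in their exons, 10.3% of those of Tnfrsf22 and 28.9% of those of Tnfrsf23 are shared. Tnfrsf26 shares none with either, nor does any other pair of members.

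**Figure D4:**
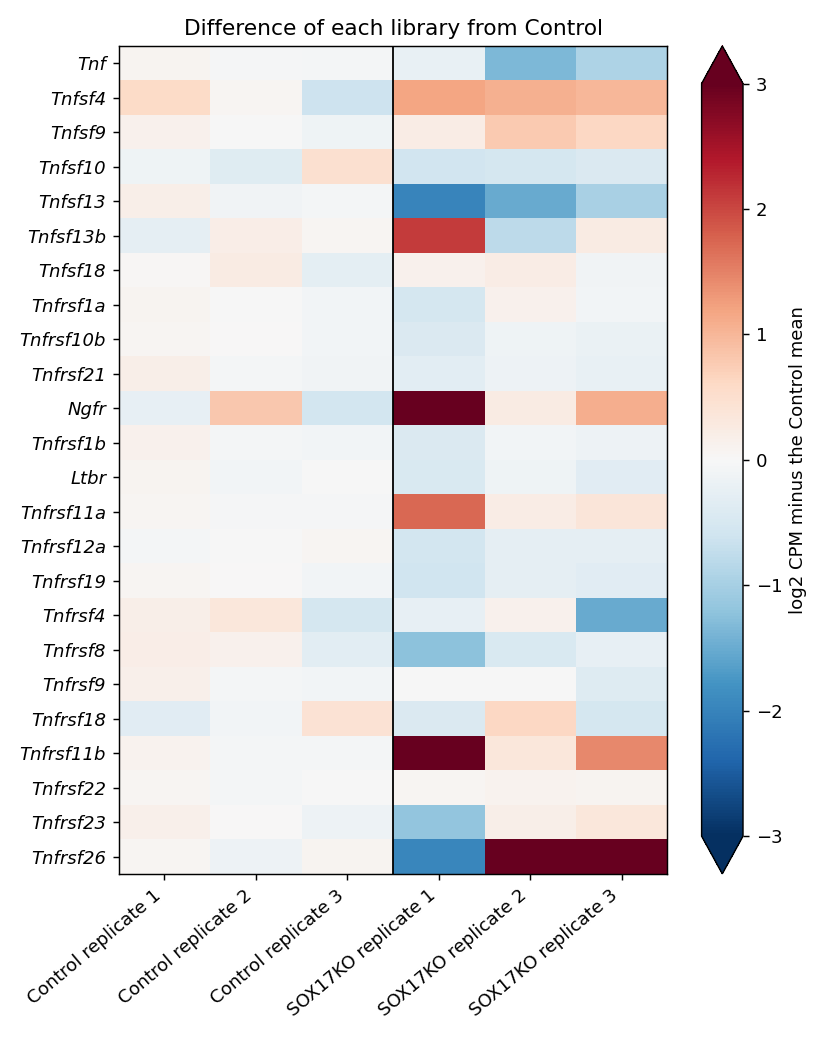
Difference of each library from the Control mean in log2 CPM for the 24 tested members, by role, with Control and SOX17KO libraries in columns (colour scale limited to 3 in each direction). SOX17KO replicate 1 is high for Ngfr, Tnfrsf11b, Tnfsf13b and Tnfrsf11a and low for Tnfrsf26, which is high in replicates 2 and 3.

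SOX17KO replicate 1 was the highest or lowest of the 6 libraries in 17 of 24 members (70.8%), 5 times the highest and 12 times the lowest, beside 60.9% of all tested genes. Without it 7 of the tested members were called, 3 higher and 4 lower, beside 22.2% of all tested genes (11.9% higher and 10.3% lower). The higher members were Tnfrsf11b, Tnfrsf26 and Tnfsf9, and the lower were Tnf, Tnfrsf12a, Tnfrsf19 and Tnfsf13.

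Of the 19 members that did not pass the filter, 7 had at least 10 counts over the 6 libraries. Tnfsf12, which encodes TWEAK, the ligand of Tnfrsf12a, had 17, 11 and 6.8 expected counts in Control and 5, 3 and 1 in SOX17KO, a scaled ratio of 0.287 (95% exact interval 0.121 to 0.609, counting error only). Its groups did not overlap; with no filter the adjusted p was 0.138 by edgeR's quasi-likelihood test. Tnfsf15, or TL1A, had 6, 7.06 and 1 expected counts in Control and 46.08, 4.1 and 6.01 in SOX17KO, so its ratio of 4.47 came from SOX17KO replicate 1. Tnfrsf14, or HVEM, did the same, with 2, 6 and 9 counts against 26, 6 and 4.

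Ltb, a subunit of the ligand of Ltbr, had 17, 7 and 13 counts in Control and 10, 6 and 6 in SOX17KO (scaled ratio 0.664, 95% exact interval 0.373 to 1.16). Cd27 and Cd40, receptors of T and B cells, had 6 against 9 and 12 against 7 counts. A further 6 members, Lta, Edar, Tnfrsf25, Tnfrsf13c, Eda2r and Tnfrsf17, had 1 to 9 counts in all. Fasl, Cd70, Tnfsf8, Tnfsf11, Tnfsf14 and Tnfrsf13b were at 0 in every library, which allows up to 3 counts, or 0.109 to 0.166 CPM by library.

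Ligands and receptors were thus measured unevenly. Tnfrsf11a and its decoy Tnfrsf11b were measured while their ligand Tnfsf11 (RANK ligand) was at 0. Tnfrsf12a was the most abundant member while its ligand Tnfsf12 did not pass the filter, and Ltbr was abundant while Lta and Ltb were at 37 or fewer counts per group. Tnfsf13 was measured while its receptors Tnfrsf13b and Tnfrsf17 had 0 and 1 counts. Among the ligands tested together with a receptor were Tnf with Tnfrsf1a and Tnfrsf1b, Tnfsf10 with Tnfrsf10b and the decoys Tnfrsf11b, Tnfrsf22 and Tnfrsf23, Tnfsf9 with Tnfrsf9, Tnfsf4 with Tnfrsf4 and Tnfsf18 with Tnfrsf18.

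Levels of different genes were compared per kilobase of exon (GENCODE M21). In Control Tnfrsf12a was highest at 187.8 ± 6.49 CPM per kilobase (SD, n = 3). Ltbr at 43.0 ± 2.38 and Tnfrsf1a at 38.3 ± 2.30 CPM per kilobase followed, and their library ranges met. Tnfrsf1b at 28.4 ± 2.30 and Tnfrsf19 at 25.4 ± 1.25 CPM per kilobase came next. Tnfrsf10b at 16.7 ± 0.863, Tnf at 15.5 ± 0.872, Tnfsf13 at 14.0 ± 1.49 and Tnfrsf21 at 12.9 ± 1.38 CPM per kilobase had neighbours within their spread. Tnf and Tnfsf13 were therefore the leading ligands in Control, with Tnfsf9 next at 7.93 ± 0.738 CPM per kilobase. In SOX17KO the order differed. Tnfsf9 stood at 11.7 ± 2.24, Tnf at 9.16 ± 3.67 and Tnfsf13 at 5.13 ± 1.82 CPM per kilobase (SD, n = 3 each), and the ranges of Tnfsf9 and Tnf met. Tnfrsf23 was left out of the Control order, since its annotated transcripts differ much in length. On the same measure it stood at 74.3 ± 8.04 CPM per kilobase in Control (SD, n = 3), rank 2 among the members.

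The tested genes around the members were read from the RefSeq order, 10 on each side. Around Tnfrsf1a on chromosome 6 the 20 neighbours had a median log2 fold change of -0.32, with 18 of 20 negative and 3 called lower. Around Ltbr, close by, the median was -0.28 with 17 of 20 negative, and over the 586 tested genes of chromosome 6 it was -0.24. These values lie beside the -0.14 of Tnfrsf1a and the -0.31 of Ltbr. Around Tnfrsf1b and Tnfrsf8 on chromosome 4 the neighbours' median was -0.47, with 17 of 20 negative, while that of the whole chromosome was 0.0014. Around Tnfsf13 on chromosome 11 it was 0.02, and none of 20 was called. Around Tnf it was 0.06, around Tnfrsf12a -0.02 and around Tnfrsf19 0.01. The part of these neighbourhoods in the members' values was not tested.

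The genes downstream of the receptors were read from 4 lists without the members, chosen with earlier results of these data known. Of the adaptors and NF-kappaB factors 33 of 35 were tested, and 2 fell and none rose. This is 6.06%, beside 6.87% of all tested genes, and the median log2 fold change was 0.011. Ikbke, which encodes the kinase IKK-epsilon, fell from 41.0, 37.5 and 38.6 CPM in Control to 12.2, 17.03 and 14.1 CPM in SOX17KO (log2 fold change -1.43 ± 0.14, SE; adjusted p = 0.00193 by edgeR's quasi-likelihood test). Birc3, which encodes the ubiquitin ligase cIAP2, fell from 39.6, 43.8 and 41.5 CPM to 29.0, 34.2 and 28.4 CPM (-0.45 ± 0.10, SE; adjusted p = 0.0469 by the same test). Birc3 is also in the death and target lists below.

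Of the 25 death machinery genes all were tested, and 2 rose and 2 fell. This is 16%, beside 6.87% of all tested genes, and the median log2 fold change was 0.037. Apaf1, the apoptosome scaffold, rose from 25.6, 26.3 and 25.1 CPM to 48.7, 39.5 and 44.5 CPM (0.79 ± 0.10, SE; adjusted p = 0.00618 by edgeR's quasi-likelihood test). Ripk3, the kinase of necroptosis, rose from 114, 118 and 122 CPM to 153, 204 and 190 CPM (0.62 ± 0.11, SE; adjusted p = 0.0223 by the same test). Bid, which links death receptors to mitochondria, fell from 63.4, 62.3 and 67.1 CPM to 43.2, 43.9 and 38.7 CPM (-0.62 ± 0.08, SE; adjusted p = 0.00746 by the same test). Bid lies on chromosome 6, where its 20 tested neighbours had a median of -0.33. Both genes that rose are known to promote cell death, and of those that fell Bid promotes it and Birc3 opposes it.

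Of the 35 NF-kappaB targets 25 were tested, and 3 rose and 4 fell. This is 28%, beside 6.87% of all tested genes, and the median log2 fold change was 0.046. Cxcl5, a neutrophil chemokine, rose from 1.01, 1.29 and 1.52 CPM to 12.1, 8.08 and 7.54 CPM (2.85 ± 0.27, SE; adjusted p = 0.00190 by edgeR's quasi-likelihood test). Cxcl1, a chemokine that acts on the same receptor, fell from 11.5, 10.4 and 11.7 CPM to 6.87, 6.06 and 6.26 CPM (-0.81 ± 0.13, SE; adjusted p = 0.0137 by the same test). The list thus moved in both directions.

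Tnfaip3, which encodes the NF-kappaB inhibitor A20, fell from 58.4, 54.6 and 48.6 CPM to 34.8, 28.3 and 35.8 CPM (-0.71 ± 0.12, SE; adjusted p = 0.0169 by edgeR's quasi-likelihood test). Nfkbia, which encodes the inhibitor IkappaB-alpha, fell from 65.5, 61.4 and 57.0 CPM to 39.9, 24.8 and 36.1 CPM (-0.87 ± 0.17, SE; adjusted p = 0.0303 by the same test). Gadd45b, a stress response gene, rose from 9.01, 8.80 and 10.4 CPM to 16.8, 14.1 and 20.9 CPM (0.87 ± 0.17, SE; adjusted p = 0.0262 by the same test). Irf1, an interferon-response factor, rose from 30.6, 28.2 and 27.6 CPM to 68.5, 41.9 and 48.0 CPM (0.88 ± 0.18, SE; adjusted p = 0.0341 by the same test). Nfkbia and Irf1 were named after their values were seen. Cd14, given above among the myeloid markers, also rose (log2 fold change 0.76; adjusted p = 0.0254 by the same test), and its part in these lists was not tested.

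Of the 12 sheddase, cofactor and other superfamily genes 8 were tested, and 1 rose (12.5%, all tested genes 6.87%, median log2 fold change 0.029). That was Grn, which encodes progranulin, a secreted protein reported to bind TNF receptors, from 64.6, 59.0 and 53.8 CPM to 89.3, 104 and 83.1 CPM (0.64 ± 0.11, SE; adjusted p = 0.0202 by edgeR's quasi-likelihood test). In each of the other called list genes, as in Grn, no SOX17KO library overlapped with Control, beside 28.2% of all tested genes. The call on the same libraries makes such a separation likely, so it adds no support. The calls of Cxcl5 and Ikbke held under every alternative run, with adjusted p of at most 0.0216 and 0.0220, whereas leaving out any of the 3 Control libraries ended the calls of Apaf1, Bid, Birc3, Cxcl1, Gadd45b, Grn, Irf1, Nfkbia, Ripk3 and Tnfaip3.

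**Figure D5:**
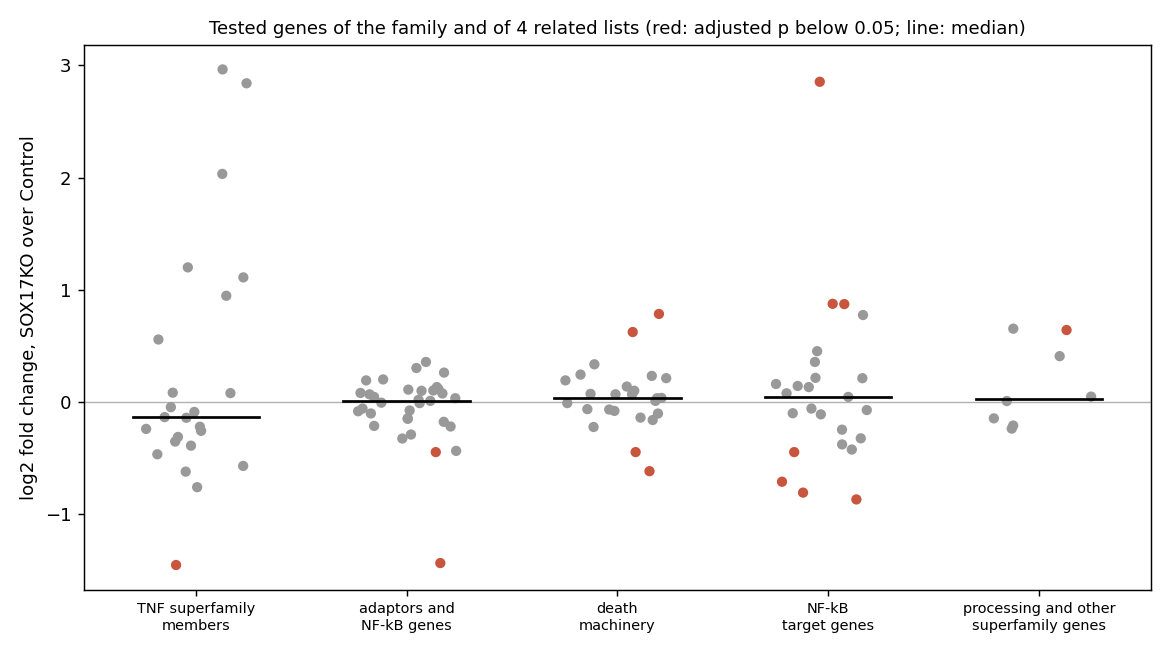
Log2 fold change of SOX17KO over Control for each tested gene of the 24 members and the 4 lists without members, one point per gene, with called genes in red and a line at each median. The medians lie between -0.14 for the members and 0.046 for the NF-kappaB targets, and the called genes lie on both sides of 0.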

How the data were processed

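Poly(A)-selected directional libraries were made, per the labels' protocols. The authors deposited expected counts per gene, made with RSEM and Bowtie on mm9 per the submitters' processing notes. Tool versions, gene models, filters and strandedness of counting were not given in the sources used here. Between 26.6% and 30.3% of the values were not whole, and all were rounded. Genes were tested with edgeR 4.0.16 (quasi-likelihood, TMM normalisation, filterByExpr with a minimum count of 10 and a minimum total of 15, R 4.3.3) on all 6 libraries, and p-values were adjusted over 12137 genes. CPM were computed on TMM-adjusted library sizes, at which 10 counts stand for 0.362 to 0.554 CPM. The SE is the log2 fold change over the square root of F. On data simulated for SOX17KO against Control with 12038 genes, 14.9% of 1.5-fold, 67.2% of 2-fold and 87.9% of 4-fold changes were recovered. Of 122 calls there 9 were false. The simulated libraries were drawn independently, and none was made to stand apart as SOX17KO replicate 1 did. Alternatives used RLE factors, library totals, other filters, unrounded counts, DESeq2 1.42.0, limma-voom (limma 3.58.1), a replicate block and leaving out each library. Named were every tested member, untested members with at least 10 counts, up to 4 called genes per list by smallest p, and Sox17. Members and lists were chosen with earlier results of these data known. Sequences came from RefSeq (GRCm38.p6) and GENCODE M21, a build other than that of the counts. Figures were drawn with matplotlib 3.10.9.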

Additional observations from a re-analysis of the deposited data

How the results depend on the processing

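The number of members called was 1, against 5 with DESeq2, 0 with the replicate block and 0 to 7 when single libraries were left out. Over all genes it was 834, against 1439 with DESeq2, 326 with the replicate block (325 of them among the 834) and 192 to 2708 with a library left out. The replicate block gave 1 adaptor and NF-kappaB gene (2 without it), 1 death machinery gene (4), 1 NF-kappaB target (7) and 0 sheddase and other genes (1, or 2 with DESeq2). With a library left out these ranged over 1 to 4, 0 to 6, 1 to 14 and 0 to 2, and the Control libraries and SOX17KO replicate 1 gave the ends. The labels do not say whether the replicate numbers pair the samples. Deviations of same-numbered libraries from their group means correlated at -0.19, -0.05 and -0.18. With 3 libraries a group such deviations constrain each other, so they cannot decide whether the numbers share a culture or batch. The block took Tnfsf13 to an adjusted p of 0.0536 by edgeR's quasi-likelihood test. Signs turned when single libraries were left out for 4 members, with log2 fold changes of -0.54 to 0.20 for Tnfrsf18, -0.30 to 0.022 for Tnfrsf1a, -0.35 to 0.26 for Tnfrsf23 and -0.072 to 0.21 for Tnfsf18. Of 331 recomputed member values, 309 kept direction and side of the threshold, 5 lost and 11 gained a call, and 6 turned. The cause was not tested. Members under 1 CPM rest on few counts. In the simulated data changes of 1.5-fold were seldom recovered with 3 libraries a group.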
